A study of Mus musculus with 9 samples.

Results

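The genes described here carry the synthesis of cholesterol and of fatty acids. They are 28 genes taken by mouse symbol, out of 52609 genes with a transcript in the deposited tables, and all 28 were found and passed the filter on low counts that left 18096 genes for testing. By role they fall into 5 sets: 7 genes of the mevalonate arm, 3 that lead to lanosterol through squalene, 8 that turn lanosterol into cholesterol, 4 regulators or sterol carriers, and 6 genes of fatty acid synthesis.

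RNA was sequenced from lines described as mouse epiblast stem cells, which are derived from the epiblast of the early embryo and kept on inactivated mouse embryonic fibroblasts as feeder cells. There were 9 libraries in 4 groups, all in medium with 20 ng/mL Activin A and 10 ng/mL FGF2. The Dkk1_KO line (n = 3) lacks Dkk1, a secreted antagonist of Wnt signalling, the IWP2 line (n = 2) was kept in 5 µM IWP2, a Porcupine inhibitor that blocks Wnt secretion, the IWP2_removed line (n = 2) had that inhibitor withdrawn once the line was derived, and the control line (n = 2) carries no modification and had no inhibitor. The labels do not say whether libraries of a group came from separate cultures, so p-values measure the spread between these libraries, which may be technical. Each group is treated here as 1 line, since its libraries share 1 genotype label, so line and condition cannot be told apart. SB431542 is named in the treatment protocol, and no library analysed here is labelled with it.

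Cells build cholesterol from acetyl-CoA through mevalonate, squalene and lanosterol, and fatty acids from acetyl-CoA through malonyl-CoA and palmitate. When membrane sterol is low, SREBP transcription factors, made from Srebf1 and Srebf2, are released from the endoplasmic reticulum and raise most of these genes together, and Insig proteins hold them back when sterol is plentiful. In the embryo the pathway also supplies the cholesterol that is attached to Hedgehog proteins, and the monounsaturated fatty acid that Porcupine attaches to Wnt proteins is a product of the stearoyl-CoA desaturases, the enzymes of Scd1 and Scd2.

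The promoters are shown because the set is known for shared control by SREBP, which binds sterol regulatory elements beside sites of the factor NF-Y. RefSeq promoters (build GRCm38.p6) were available for 22 of the 28 genes, Fdps, Fdft1, Sqle, Stard4, Scd1 and Scd2 being those without an entry, and the 250 bases before each start were searched on both strands. TCACNCCAC, a form of the sterol regulatory element, was matched in full in 1 of the 22 genes (4.55%), Hmgcs1, against 1.32% of the 12544 tested genes with a promoter entry. With at most 1 mismatch it was found in 10 of 22 (45.5%), against 25.7% of all, and CCAAT, the core of the NF-Y site, in 18 of 22 (81.8%), against 40.3%. The stretches below run 5′ to 3′, stop before both the RefSeq start and the start of the gene in GENCODE vM21, and carry both kinds of match in capitals. They are the members with a TCACNCCAC match and the smallest adjusted p in any of the 5 comparisons. Hsd17b7 entered through the comparison of file-name letters described below, and was not called in Dkk1_KO. Msmo1 was left out because most of its window lies inside the GENCODE gene. The stretches of the others were shortened where their RefSeq start lay inside the GENCODE gene. Hmgcs1 was added, after its values were seen, for its full match. A match is a run of letters and not a measured binding site.
Srebf2 (chr15:82147019-82147180, plus strand): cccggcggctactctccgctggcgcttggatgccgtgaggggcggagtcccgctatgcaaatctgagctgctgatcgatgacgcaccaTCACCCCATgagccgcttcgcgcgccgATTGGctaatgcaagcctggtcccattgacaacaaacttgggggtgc
Acat2 (chr17:12960748-12960975, minus strand): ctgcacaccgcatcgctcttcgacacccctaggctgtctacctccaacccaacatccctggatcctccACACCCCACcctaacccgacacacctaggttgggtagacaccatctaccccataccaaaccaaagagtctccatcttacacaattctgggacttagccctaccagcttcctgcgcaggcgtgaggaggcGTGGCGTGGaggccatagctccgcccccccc
Insig1 (chr5:28071162-28071362, plus strand): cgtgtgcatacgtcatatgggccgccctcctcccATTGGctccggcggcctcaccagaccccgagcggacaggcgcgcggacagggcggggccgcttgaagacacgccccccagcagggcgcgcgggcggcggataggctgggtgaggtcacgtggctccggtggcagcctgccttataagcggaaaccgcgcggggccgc
Hsd17b7 (chr1:169969242-169969455, minus strand): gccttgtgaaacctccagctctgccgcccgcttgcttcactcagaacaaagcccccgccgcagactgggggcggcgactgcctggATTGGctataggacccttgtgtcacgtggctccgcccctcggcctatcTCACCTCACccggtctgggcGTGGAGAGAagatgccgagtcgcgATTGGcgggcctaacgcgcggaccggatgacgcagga
Cyp51 (chr5:4104747-4104947, minus strand): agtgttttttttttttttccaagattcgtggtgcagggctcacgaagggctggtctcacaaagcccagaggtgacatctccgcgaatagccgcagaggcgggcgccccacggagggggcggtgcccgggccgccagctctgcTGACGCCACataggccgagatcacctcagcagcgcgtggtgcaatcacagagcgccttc
Hmgcs1 (chr13:119690101-119690350, plus strand): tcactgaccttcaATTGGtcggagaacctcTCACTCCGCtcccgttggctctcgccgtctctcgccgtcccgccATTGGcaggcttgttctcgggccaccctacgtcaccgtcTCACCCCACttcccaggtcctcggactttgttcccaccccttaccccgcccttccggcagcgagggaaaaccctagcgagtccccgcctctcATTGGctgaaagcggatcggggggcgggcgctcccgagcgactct

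In Hmgcs1 the full match began 137 bases before the start, between CCAAT matches on the other strand at 176 and 45 bases. Srebf2 held a match with 1 mismatch at 162 bases and a reversed CCAAT at 135 bases. Acat2 held a pair of matches with 1 mismatch, at 182 and 53 bases, and no CCAAT. Insig1 had its match 9 bases before the RefSeq start, past the end of the stretch shown. Hsd17b7 had matches at 117 and 97 bases, and Cyp51 at 108 bases. Genes with a match stood both among those higher and among those lower in Dkk1_KO: Srebf2 was higher and Acat2 lower, as described with their values.

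Libraries held between 10849490 and 17892751 estimated reads, and the member with the fewest, Tm7sf2, had at least 125 in each library. Dkk1 itself read 0.701, 0.835 and 1.13 CPM in Dkk1_KO, 2.89 and 0.348 CPM in IWP2, 3.45 and 5.84 CPM in IWP2_removed, and 6.77 and 8.95 CPM in control; CPM are read counts scaled by library size. Summed over 10 trophoblast markers the level was 2519 to 2540 CPM in Dkk1_KO against 66.6 to 98.6 CPM in control, with 9 of 10 called higher. Over 10 primed epiblast markers it was 671 to 696 CPM in Dkk1_KO against 1798 to 1961 CPM in control, with 6 called lower and 2 higher, and 3 of the 10 averaged below 1 CPM in Dkk1_KO. Over 11 feeder fibroblast markers it was 2139 to 2203 CPM in Dkk1_KO against 3570 to 4298 CPM in control, with 9 called lower. Neural markers were lower in 5 of 5 cases, and of 5 tested endoderm markers 3 were lower and 1 higher. Of all genes tested, 21.3% were called higher and 23% lower in Dkk1_KO. The Dkk1_KO libraries therefore go against the label of an epiblast line in their markers, and fewer cells of a type and less RNA per cell cannot be told apart in such bulk samples. In IWP2 and IWP2_removed, 0 of the 10 primed epiblast and 0 of the 11 feeder markers were called against control. Of all genes 2.19% and 1.25% were called there, so 0 calls in lists this short do not show unchanged markers. The feeder sum in IWP2, 2769 to 3327 CPM, lay below both control libraries. In IWP2_removed it was 3534 to 4152 CPM. Called lower in IWP2 were 1 of 10 trophoblast and 1 of 5 tested endoderm markers. The part of these marker differences in the results was not tested.

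The 28 genes summed to 1229 ± 39.6 TPM in Dkk1_KO (SD, n = 3), 1091 ± 174 TPM in IWP2 (n = 2), 1263 ± 160 TPM in IWP2_removed (n = 2) and 1204 ± 126 TPM in control (n = 2); TPM are relative levels scaled for transcript length. In TPM each group mean differed from that of control by less than the control SD. In CPM the sums were 4217 ± 34.3 in Dkk1_KO, 3994 ± 263 in IWP2, 4405 ± 514 in IWP2_removed and 4170 ± 44.1 in control. All 3 means there differed from control by more than the control SD, those of IWP2 and IWP2_removed by less than the SD of their own libraries. By role the sums parted in Dkk1_KO. The regulators and sterol carriers reached 146.3% of control in TPM and 191.6% in CPM, fatty acid synthesis 82.3% in TPM and 78.7% in CPM, and the mevalonate arm 87.8% in TPM and 91.5% in CPM. Srebf2 made up most of the first of these sums in Dkk1_KO.

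**Figure D1:**
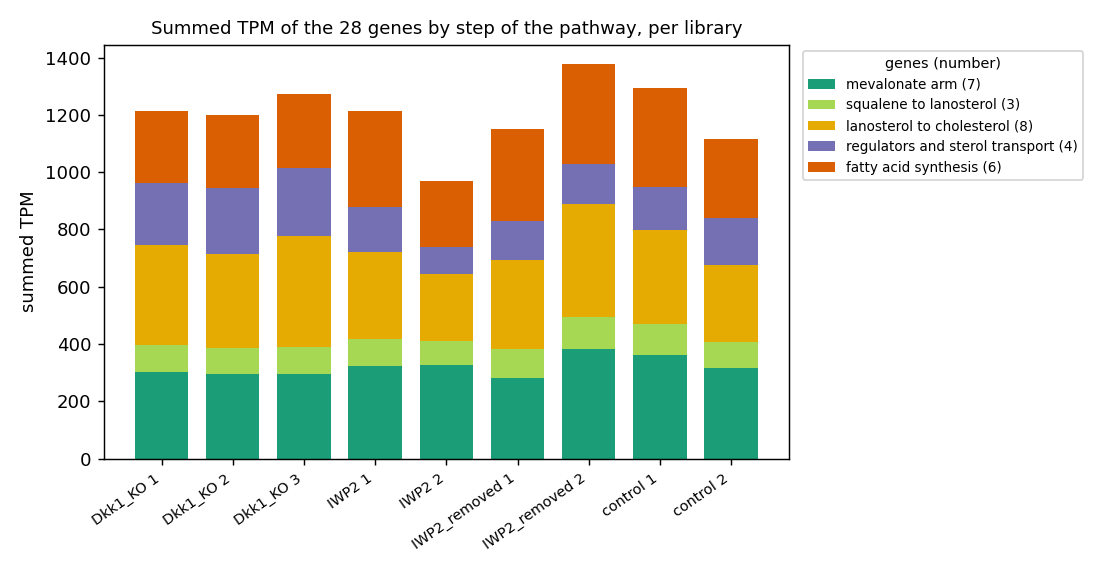
Summed TPM of the 28 genes in each library, as stacked bars by step of the pathway, with the number of genes per step in the legend. The whole bars reach 1198 to 1273 TPM in Dkk1_KO and 1115 to 1293 TPM in control, while the band of regulators and sterol transport is 217 to 240 TPM in Dkk1_KO and 150 to 163 TPM in control.

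Among the members, Fdps had the highest mean over the 9 libraries (112.7 TPM), followed by Dhcr7 (106.8 TPM) and Scd2 (100.9 TPM), and Acaca the lowest (9.39 TPM). By estimated reads Scd2 was the highest, with 111449 over the 9 libraries, against 18100 for Fdps. Sums of TPM over transcripts depend on short annotated transcripts, which weigh more per read. Transcripts under 1000 bases held 63.5% to 88.2% of the Dhcr7 TPM and only 6.68% to 21.3% of its reads, 46.2% to 80.2% of the Fasn TPM and 31.3% to 50.6% of the Fdps TPM. For Scd1, Scd2, Mvd and Sqle no transcript was that short, and for those genes TPM and reads rest on the same transcripts.

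The knockout line was compared with control to see what differs where this Wnt antagonist is lost. In Dkk1_KO the pathway did not move in 1 direction. Of the 28 genes 9 were called higher and 7 lower, 57.1% in all, where a call is an adjusted p below 0.05 in edgeR's quasi-likelihood test over all genes. Of all 18096 genes tested 44.3% were called, 21.3% higher and 23% lower, so the share among these genes is little above that of any gene. Their median log2 fold change was 0.08, against -0.03 over all genes tested, and 14 of 28 were above 0. With the 3 Dkk1_KO libraries averaged to 1, which leaves 14.4% of all genes called, 3 members stayed called: Mvd, Srebf2 and Scd1. These 3 were called under all 19 alternatives. Without control replicate 1, 10 members were called, and Pmvk, Cyp51, Msmo1, Dhcr7, Acaca and Elovl6 were not. The calls of Cyp51, Msmo1, Dhcr7 and Elovl6 also ended without any 1 of the Dkk1_KO libraries, that of Insig1 without Dkk1_KO replicate 1 or 3, and those of Cyp51, Msmo1 and Insig1 without control replicate 2. The comparison also moved with transcript length: with the tested genes split by length into 5 equal bins, the median log2 fold change over all genes was 0.10 in the shortest bin and -0.23 in the longest, where the 9 members had a median of -0.46. With that trend as an offset, an alternative added after seeing the data, 17 members were called. Elovl6 (-0.22, adjusted p = 0.193) and Cyp51 (-0.28, adjusted p = 0.159) were not among them, and Mvk (-0.43, adjusted p = 0.0178), Lss (0.51, adjusted p = 0.017) and Acly (0.40, adjusted p = 0.0175) were.

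**Figure D2:**
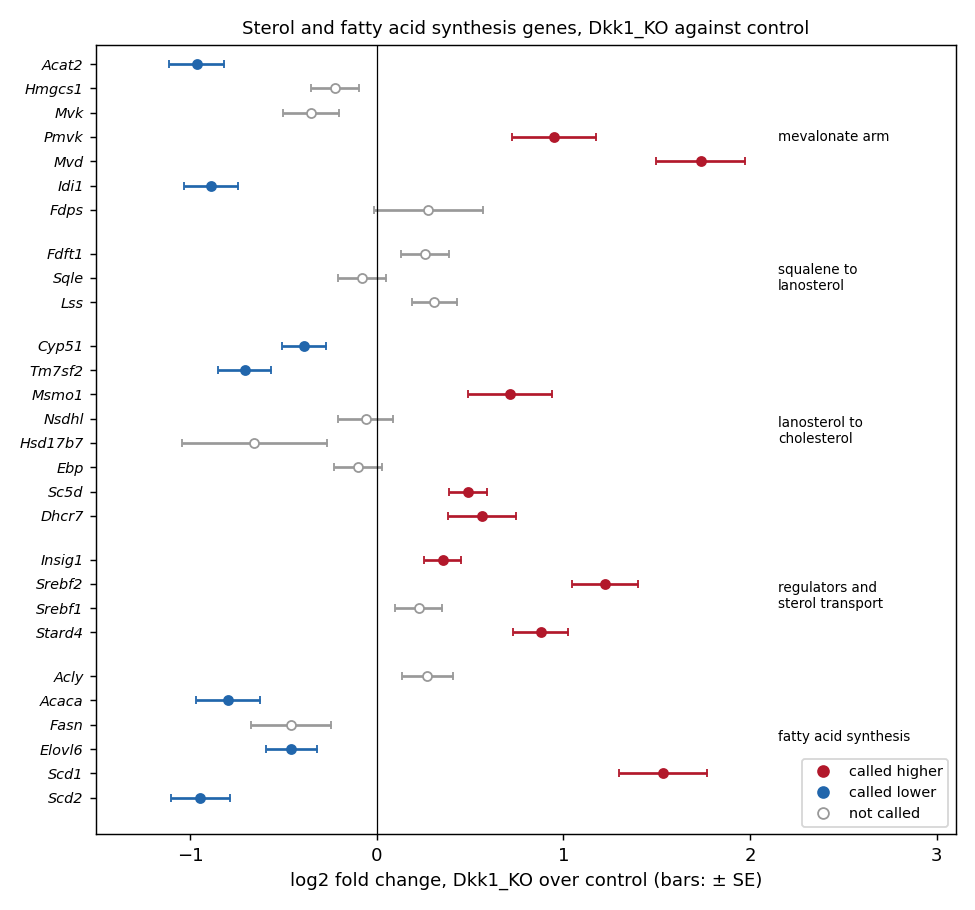
Log2 fold change of each of the 28 genes in Dkk1_KO over control, with bars of ± SE from the model, grouped by step of the pathway from top to bottom; filled points were called and open points were not. Called genes lie on both sides of 0 in every step but squalene to lanosterol, which has none, and the regulators, of which 3 were higher.

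In the mevalonate arm, 2 of 7 genes rose and 2 fell in Dkk1_KO, beside 21.3% and 23% of all genes. Mvd, which decarboxylates mevalonate diphosphate (ENSMUSG00000006517.5, chromosome 8, 122433601 to 122443422, minus strand, GRCm38), had 41.1, 41.6 and 41.2 TPM in Dkk1_KO, 14.1 and 17.2 TPM in IWP2, 15.7 and 20.2 TPM in IWP2_removed and 12.9 and 15.9 TPM in control. All 3 Dkk1_KO libraries lay above every other library. Means were 105 ± 0.594 CPM over the 3 Dkk1_KO libraries and 31.4 ± 8.30 CPM over the 2 control libraries (± SD), and the model gave a log2 difference of 1.74 ± 0.24 (± SE, adjusted p = 0.000566). Pmvk, the kinase just before it, had 29.0, 29.7 and 32.3 TPM in Dkk1_KO, 18.2 and 20.8 TPM in IWP2, 17.4 and 21.3 TPM in IWP2_removed and 20.0 and 23.7 TPM in control, and rose by 0.95 ± 0.23 on the log2 scale (adjusted p = 0.00915). The Dkk1_KO libraries lay above all others, but short transcripts held 4.05% to 47.5% of its reads.

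Acat2, the cytosolic thiolase that joins acetyl-CoA units at the start of the arm (ENSMUSG00000023832.14, chromosome 17, 12942890 to 12960747, minus strand), had 25.7, 24.1 and 24.4 TPM in Dkk1_KO, 57.9 and 53.0 TPM in IWP2, 52.3 and 64.0 TPM in IWP2_removed and 58.1 and 53.3 TPM in control. The knockout libraries lay below all others, at 51.3% of control in CPM (log2 fold change -0.96 ± 0.15, adjusted p = 0.000972). Its neighbour Acat3, a close copy with which reads could be shared, stood at 0.995 to 1.32 CPM in all libraries. Idi1, which isomerises isopentenyl diphosphate, had 17.6, 16.7 and 15.6 TPM in Dkk1_KO, 42.9 and 38.7 TPM in IWP2, 36.6 and 38.2 TPM in IWP2_removed and 44.7 and 29.3 TPM in control. It fell to 54.1% of control in CPM (log2 fold change -0.89 ± 0.15, adjusted p = 0.0014), and the Dkk1_KO libraries lay below all others. The other 3 were not called: Hmgcs1, the HMG-CoA synthase (log2 fold change -0.22 ± 0.13), Mvk, mevalonate kinase (-0.35 ± 0.15), and Fdps, farnesyl diphosphate synthase (0.28 ± 0.29). Fdps, highest of the members in summed TPM, had 113, 114 and 110 TPM in Dkk1_KO, 92.9 and 114 TPM in IWP2, 91.4 and 164 TPM in IWP2_removed and 113 and 101 TPM in control, and its groups overlapped.

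Of the genes that lead through squalene to lanosterol, 0 of 3 were called in Dkk1_KO by edgeR, beside 44.3% of all genes. Of the 3, 1 had an unadjusted p below 0.05. With only the 2 groups compared, edgeR called Lss (adjusted p = 0.00685) and Fdft1 (adjusted p = 0.0213). Fdft1, squalene synthase, had a log2 fold change of 0.26 ± 0.13, Sqle, squalene epoxidase, of -0.08 ± 0.13, and Lss, lanosterol synthase, of 0.31 ± 0.12 (adjusted p = 0.0707). The 95% intervals of all 3 lay within 2-fold of control.

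From lanosterol to cholesterol, 3 of 8 genes rose and 2 fell in Dkk1_KO, beside 21.3% and 23% of all genes. Those that rose were Msmo1, which oxidises the methyl groups of the ring, Sc5d, a sterol desaturase, and Dhcr7, the reductase that completes cholesterol. Msmo1 had 114, 99.4 and 125 TPM in Dkk1_KO, 63.7 and 83.7 TPM in IWP2, 78.1 and 92.1 TPM in IWP2_removed and 79.5 and 67.6 TPM in control (log2 fold change 0.71 ± 0.23, adjusted p = 0.0316). Sc5d had 27.4, 25.5 and 27.9 TPM in Dkk1_KO, 22.1 and 13.4 TPM in IWP2, 20.3 and 18.3 TPM in IWP2_removed and 21.6 and 15.7 TPM in control (0.49 ± 0.10, adjusted p = 0.00505). Both were higher in every Dkk1_KO library than in any other library. Dhcr7 had 127, 120 and 147 TPM in Dkk1_KO, 90.5 and 40.3 TPM in IWP2, 84.4 and 173 TPM in IWP2_removed and 94.97 and 84.71 TPM in control (0.57 ± 0.18, adjusted p = 0.0344). It exceeded both control libraries, but the highest library of all was IWP2_removed replicate 2.

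The members of these later steps that fell were Cyp51, the lanosterol demethylase, and Tm7sf2, a sterol reductase that acts on the product of Cyp51. Cyp51 had 29.9, 32.4 and 32.9 TPM in Dkk1_KO, 42.6 and 35.1 TPM in IWP2, 52.9 and 46.7 TPM in IWP2_removed and 47.6 and 40.9 TPM in control (log2 fold change -0.39 ± 0.12, adjusted p = 0.0269). Tm7sf2 had 6.46, 6.06 and 6.20 TPM in Dkk1_KO, 14.8 and 13.9 TPM in IWP2, 20.0 and 13.6 TPM in IWP2_removed and 14.0 and 11.9 TPM in control (-0.71 ± 0.14, adjusted p = 0.00418). For both genes the Dkk1_KO libraries were the lowest of the 9. Lbr, which catalyses the same reduction as Tm7sf2 and is no member of the set, went the other way, at 268 ± 2.77 CPM in Dkk1_KO (n = 3) and 140 ± 0.458 CPM in control (n = 2, log2 fold change 0.94 ± 0.12, adjusted p = 0.000365). Nsdhl (-0.06 ± 0.15) and Hsd17b7 (-0.65 ± 0.39), which complete the removal of methyl groups, and the isomerase Ebp (-0.10 ± 0.13) were not called.

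Of the 4 regulators and carriers, 3 were called in Dkk1_KO, all higher, beside 21.3% of all genes called higher, and the call of Insig1 among them ended under several alternatives. Srebf2, the SREBP gene that mainly drives sterol synthesis (ENSMUSG00000022463.8, chromosome 15, 82147181 to 82205379, plus strand), had 122, 123 and 126 TPM in Dkk1_KO, 62.0 and 44.1 TPM in IWP2, 52.4 and 62.5 TPM in IWP2_removed and 52.0 and 71.7 TPM in control. Means were 660 ± 20.0 CPM over the 3 Dkk1_KO libraries and 283 ± 65.4 CPM over the 2 control libraries (log2 fold change 1.22 ± 0.18, adjusted p = 0.000779). Srebf1, which mainly drives fatty acid genes, was not called (117.0% of control in CPM, adjusted p = 0.185). The ratio of Srebf2 to Srebf1 in TPM was 2.62, 2.12 and 1.89 in Dkk1_KO, 1.07 and 1.78 in IWP2, 1.09 and 1.51 in IWP2_removed, and 1.04 and 1.38 in control. It was highest in the knockout, but short transcripts held 66.2% to 85.4% of the Srebf1 TPM.

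Stard4, a protein that carries cholesterol between membranes, had 21.4, 21.3 and 19.5 TPM in Dkk1_KO, 11.4 and 6.23 TPM in IWP2, 8.93 and 9.44 TPM in IWP2_removed and 14.4 and 14.8 TPM in control. It rose in Dkk1_KO by 0.88 ± 0.15 on the log2 scale (adjusted p = 0.00166), and the Dkk1_KO libraries lay above all others. Insig1, which retains the SREBP complex in the endoplasmic reticulum and is itself a target of it, had 27.6, 27.3 and 27.4 TPM in Dkk1_KO, 28.9 and 20.3 TPM in IWP2, 26.7 and 24.5 TPM in IWP2_removed and 33.4 and 24.8 TPM in control. In TPM the Dkk1_KO libraries fell between the control libraries, whereas in CPM they read 102 to 109, against 80.4 and 85.4 in control (log2 fold change 0.35 ± 0.10, adjusted p = 0.0174). On log2(TPM + 1) with limma the sign was reversed, at -0.07 (adjusted p = 0.807), so the direction of Insig1 depends on the scale.

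In fatty acid synthesis the desaturases parted: Scd1 rose and Scd2 fell in Dkk1_KO. Scd1 (ENSMUSG00000037071.3, chromosome 19, 44394455 to 44407879, minus strand) had 26.5, 27.0 and 26.5 TPM in Dkk1_KO, 8.07 and 7.32 TPM in IWP2, 10.1 and 16.7 TPM in IWP2_removed and 10.2 and 11.3 TPM in control. Means were 206 ± 1.87 CPM over the 3 Dkk1_KO libraries and 71.2 ± 13.1 CPM over the 2 control libraries (log2 fold change 1.53 ± 0.24, adjusted p = 0.001). Scd2 (ENSMUSG00000025203.6, chromosome 19, 44293674 to 44306864, plus strand), its neighbour and the form known as the main desaturase of mouse embryos, had 57.3, 56.5 and 56.3 TPM in Dkk1_KO, 134 and 81.9 TPM in IWP2, 125 and 140 TPM in IWP2_removed and 136 and 121 TPM in control. Its means were 497 ± 5.65 CPM over the 3 Dkk1_KO libraries and 956 ± 34.4 CPM over the 2 control libraries (log2 fold change -0.94 ± 0.16, adjusted p = 0.00153). Scd1 made up 31.7%, 32.3% and 32.0% of the summed TPM of the pair in Dkk1_KO, 5.69% and 8.20% in IWP2, 7.47% and 10.7% in IWP2_removed, and 7.003% and 8.516% in control. The sum of the pair was 82.9 to 83.8 TPM in Dkk1_KO and 133 to 146 TPM in control, while IWP2 replicate 2, at 89.2 TPM, came close to the knockout. The family members Scd3 and Scd4, at 0.126 to 2.96 CPM, held few reads, and how the estimation divided reads among these related genes was not tested.

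Acaca, which makes malonyl-CoA, and Elovl6, which lengthens palmitate, also fell. Acaca had 6.33, 7.36 and 5.66 TPM in Dkk1_KO, 13.8 and 5.14 TPM in IWP2, 8.42 and 6.61 TPM in IWP2_removed and 19.4 and 11.8 TPM in control (log2 fold change -0.80 ± 0.17, adjusted p = 0.00568). Elovl6 had 9.56, 9.44 and 10.3 TPM in Dkk1_KO, 15.4 and 8.47 TPM in IWP2, 20.97 and 21.39 TPM in IWP2_removed and 18.8 and 15.2 TPM in control (-0.46 ± 0.14, adjusted p = 0.0255). In TPM both lay below the control libraries without overlap, both overlapped with IWP2, and Acaca overlapped with IWP2_removed as well. In CPM Acaca read 72.2 to 76.1 in Dkk1_KO against 111 and 76.5 in IWP2, without overlap. Fasn, the synthase itself (-0.46 ± 0.21, adjusted p = 0.117), and Acly, which supplies cytosolic acetyl-CoA from citrate (0.27 ± 0.14, adjusted p = 0.136), were not called.

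**Figure D3:**
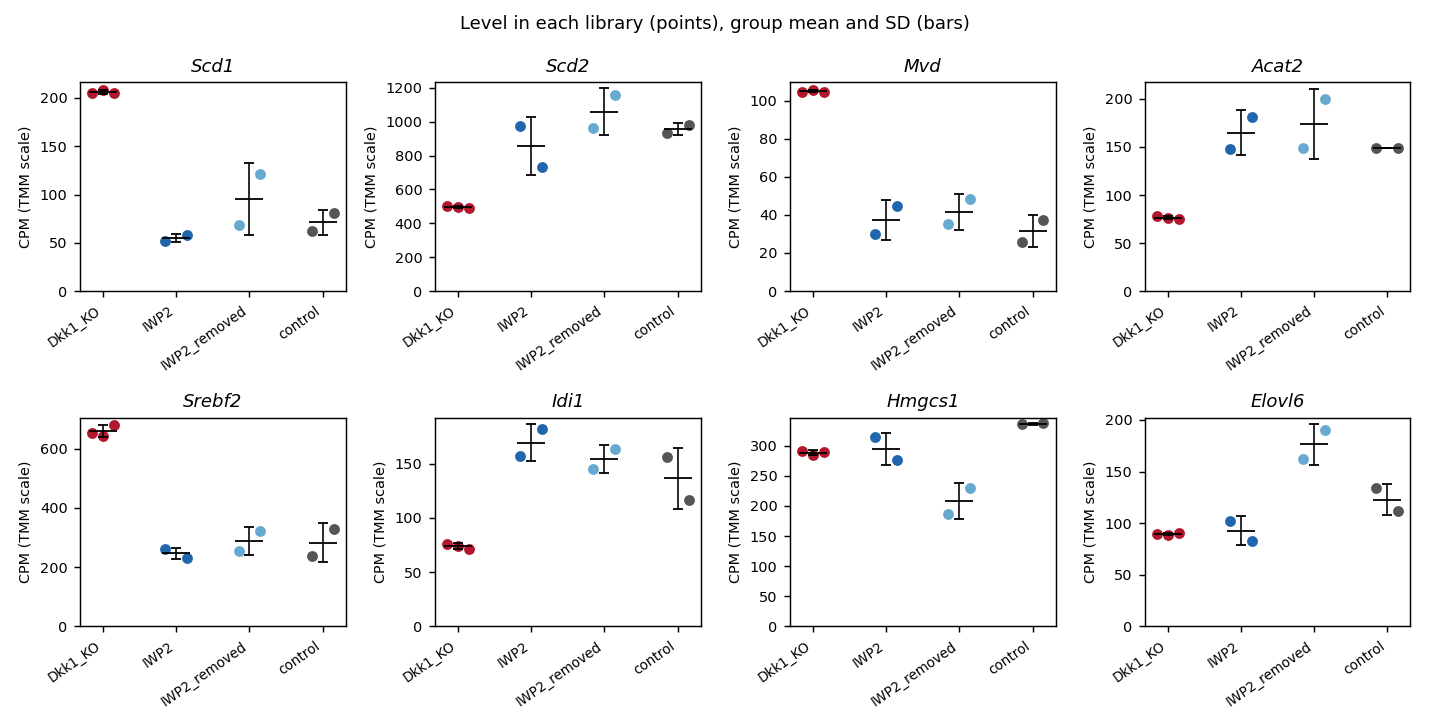
CPM on the TMM scale in each library for 8 of the genes, 1 panel each, with the library values as points and the group mean and SD as bars; each vertical axis starts at 0. Scd1, Mvd and Srebf2 stand higher and Scd2, Acat2 and Idi1 lower in Dkk1_KO than in every other library, while the points of Hmgcs1 and Elovl6 set IWP2_removed apart.

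Of 20 other genes of sterol handling and the SREBP axis, 6 were higher and 5 lower in Dkk1_KO, with a median log2 fold change of 0.09. Over all genes 21.3% were called higher and 23% lower. Fads2, a desaturase of polyunsaturated fatty acids, averaged 25.3 ± 0.391 CPM in Dkk1_KO (n = 3) and 95.9 ± 8.86 CPM in control (n = 2, log2 fold change -1.93 ± 0.15, adjusted p = 2.32e-05). Of 9 genes of sterol efflux and the LXR receptors, Lpcat3, a phospholipid acyltransferase, was higher (1.13 ± 0.13, adjusted p = 0.000219) and Soat1, which esterifies cholesterol, lower (-0.59 ± 0.12, adjusted p = 0.00467).

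Of 11 tested genes of fatty acid oxidation, the opposing pathway, 5 were higher and 3 lower in Dkk1_KO, again beside 21.3% and 23% of all genes. Acadvl (1.24 ± 0.13, adjusted p = 0.000142) and Acadm (1.02 ± 0.13, adjusted p = 0.000443), dehydrogenases of long and medium chains, were higher.

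The line kept in IWP2 was set against control to ask what blocking Wnt secretion changes. By edgeR 0 of the 28 genes were called, where 2.19% of all genes were, and 0 by DESeq2. At an unadjusted p below 0.05 there were 3, all lower in IWP2: Stard4 (log2 fold change -0.52 ± 0.16, adjusted p = 0.141), Elovl6 (-0.41 ± 0.15, adjusted p = 0.221) and Acaca (-0.46 ± 0.19, adjusted p = 0.269). The 95% intervals of 27 of the 28 lay within 2-fold of control. The exception, Hsd17b7, ran from -0.41 to 1.55 on the log2 scale. Without IWP2 replicate 1, which left IWP2 without replication, the log2 fold change was -0.77 for Acaca and -0.58 for Elovl6.

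After withdrawal of IWP2, 0 of the 28 genes were called against control by edgeR, where 1.25% of all genes were, with 6 at an unadjusted p below 0.05. The nearest was Hmgcs1, which makes HMG-CoA and holds the full promoter match. It read 187 and 229 CPM in IWP2_removed, 314 and 275 CPM in IWP2, and 335 and 338 CPM in control, with 284.0 to 291.5 CPM in Dkk1_KO, so that both IWP2_removed libraries were below all others. Its log2 fold change of IWP2_removed over control was -0.69 ± 0.14 (adjusted p = 0.0616). It was called under 5 of 22 alternatives, among them DESeq2 (adjusted p = 0.000481), which called only this member. Acaca was at 86.1 and 82.1 CPM in IWP2_removed and 146 and 113 CPM in control (-0.62 ± 0.19, adjusted p = 0.207). Its log2 fold change was -0.63 without IWP2 replicate 1 and -0.62 without IWP2 replicate 2. Estimates were above 0 for 22 of the 28, with a median of 0.20 against 0.005 over all genes, and 24 intervals lay within 2-fold. The 2 libraries differed in this: the 28 genes summed to 4042 CPM in IWP2_removed replicate 1 and 4769 CPM in replicate 2. The control libraries, at 4201 and 4139 CPM, lay between them.

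Between IWP2_removed and IWP2, which asks what withdrawal of the inhibitor changes, 0 of the 28 were called by edgeR, where 0.0608% of all genes were, with 4 at an unadjusted p below 0.05. Elovl6 read 163 and 190 CPM in IWP2_removed, 102 and 82.5 CPM in IWP2, and 134 and 112 CPM in control. The groups did not overlap, IWP2_removed being at 190.9% of IWP2 (log2 fold change 0.93 ± 0.15, adjusted p = 0.0762). DESeq2 called Elovl6 (adjusted p = 0.00012) and Hmgcs1 (-0.51, adjusted p = 0.0468). Scd1 read 68.6 and 122 CPM in IWP2_removed and 52.0 and 57.8 CPM in IWP2 (0.79 ± 0.25, adjusted p = 0.305), and Lss 67.9 and 84.2 CPM in IWP2_removed and 60.4 and 54.7 CPM in IWP2 (0.40 ± 0.13, adjusted p = 0.337). The comparisons with IWP2 and with control share libraries, so their values are not independent of each other. The related lists had no call in this comparison, nor in IWP2_removed against control.

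**Figure D4:**
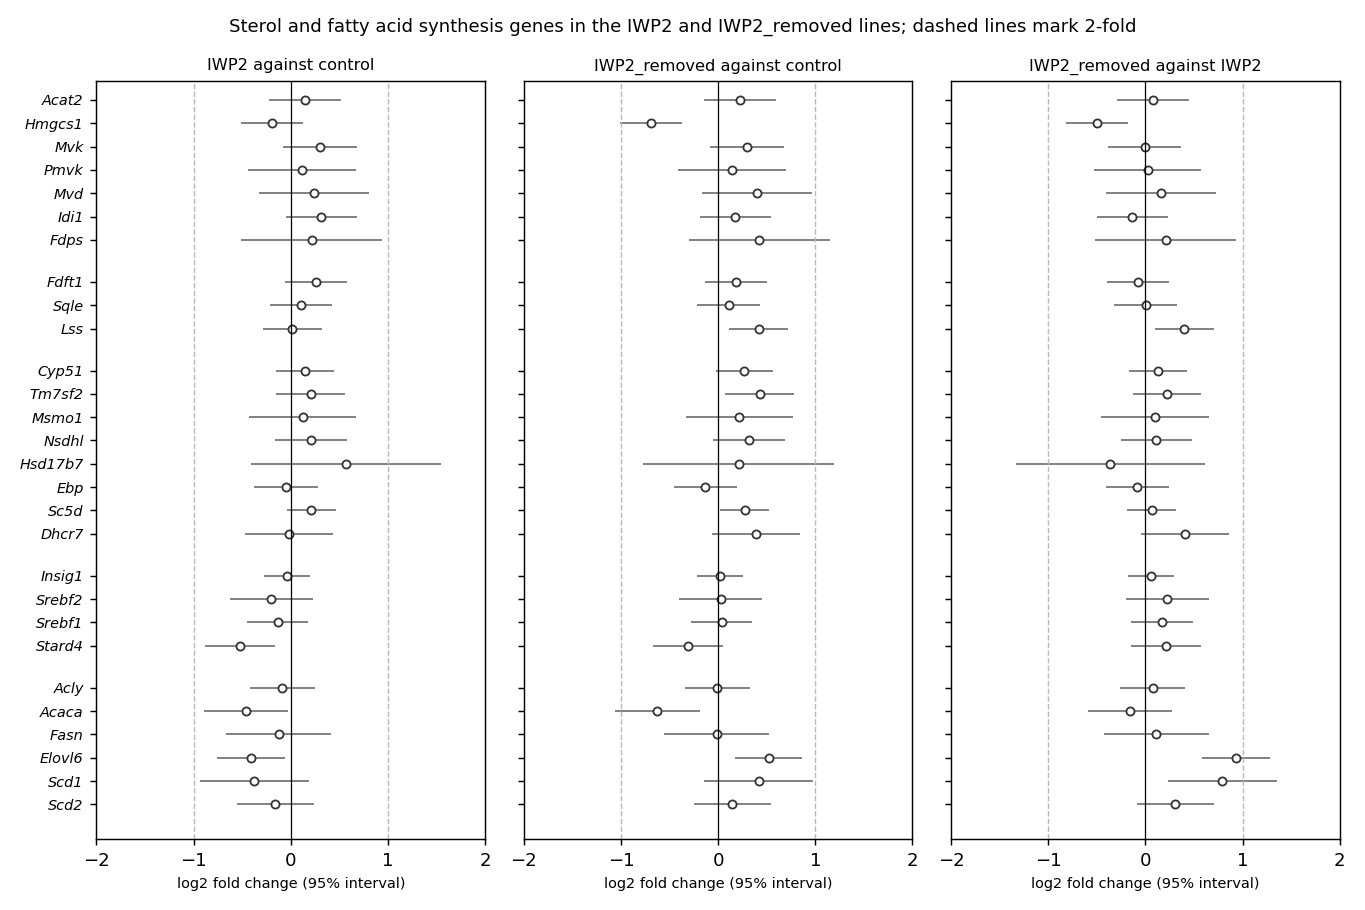
Log2 fold change of the 28 genes with 95% intervals for IWP2 against control, IWP2_removed against control and IWP2_removed against IWP2, ordered by step of the pathway, with dashed lines at 2-fold. No gene was called; Hmgcs1 lies lowest in the middle panel at -0.69 and Elovl6 highest in the right panel at 0.93.

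The deposited file names carry a letter, B or C for the 2 libraries of the IWP2, IWP2_removed and control lines and A, B or C for Dkk1_KO, and nothing in the labels says what it marks. In the first 3 of these lines it coincides with replicate number, and the libraries of 1 letter deviated together. Letter C was compared with letter B within these 3 lines, over 6 libraries. Of the 28 genes 2 were called (7.14%), 1 higher and 1 lower in C, close to the 7.66% of 17214 genes tested (3.1% higher, 4.56% lower). Hsd17b7 (ENSMUSG00000026675.12, chromosome 1, 169949535 to 169969241, minus strand), a reductase of the demethylation steps, had 5.20 TPM in library C and 22.5 TPM in B of IWP2, 7.07 and 12.3 TPM in C and B of IWP2_removed, and 7.65 and 16.6 TPM in C and B of control. It was lower in C in each line (log2 fold change -0.93 ± 0.18, adjusted p = 0.0266). In Dkk1_KO the log2 difference of C over B was 0.07. Mvd was higher in C in each of the 3 lines, by 0.58, 0.47 and 0.55 on the log2 CPM scale in IWP2, IWP2_removed and control (0.53 ± 0.13, adjusted p = 0.0488), against -0.02 in Dkk1_KO.

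In CPM letter C lay above B in all 3 lines for 7 of the 28 genes and below it in all 3 for 4, and 17 were mixed. Fdps, 1 of the 7, differed by 0.74 in IWP2, 0.98 in IWP2_removed and 0.18 in control on the log2 CPM scale (0.63 ± 0.17, adjusted p = 0.0637). Fasn, 1 of the 4, differed by -0.73, -0.12 and -0.41 (-0.42 ± 0.16, adjusted p = 0.128). On the log2 TPM scale Fdps was at -0.16 in control and Fasn at 0.08 in IWP2_removed, so for both the sign differed between lines. Over all genes the letter difference likewise moved with transcript length, and all genes had a median log2 difference of 0.25 in the shortest bin and -0.26 in the longest. Among the members the 4 in the shortest bin had a median of 0.28 and the 8 in the longest 0.01. With that trend as an offset Hsd17b7 (-0.78) and Scd1 (0.63, adjusted p = 0.0317) were called and Mvd (0.42, adjusted p = 0.0571) was not. With the Dkk1_KO libraries added, 0 of the 28 were called, and likewise 0 of all genes tested.

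**Figure D5:**
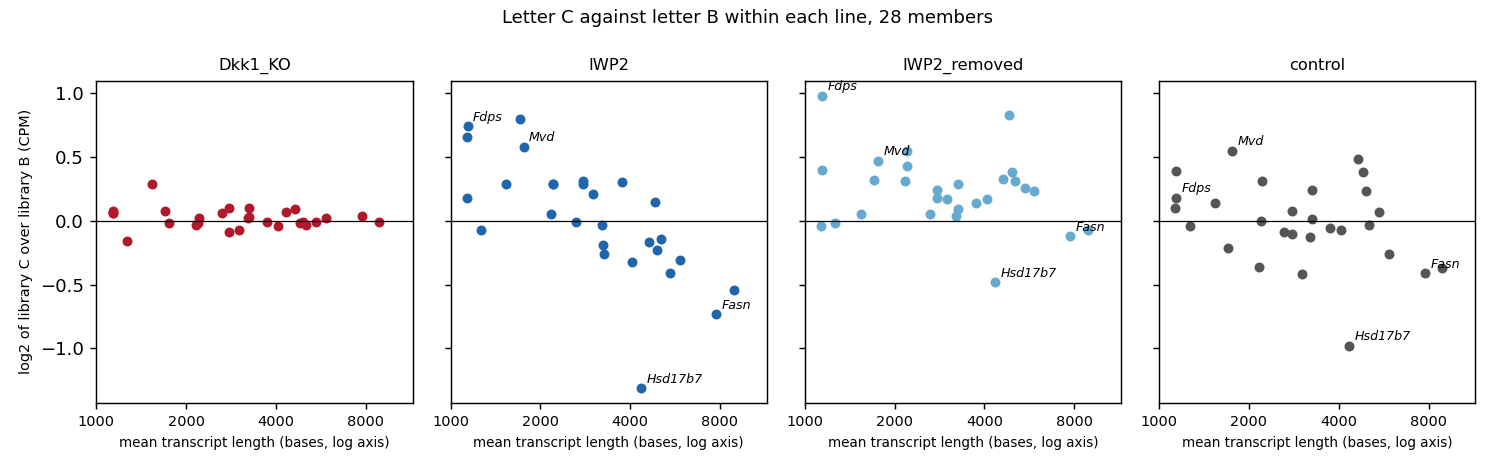
Log2 ratio of the CPM of library C over library B for each of the 28 genes against mean transcript length on a log axis, 1 panel per line. In Dkk1_KO the points lie between -0.16 and 0.29; in IWP2 they run from 0.80 down to -1.31, with the shorter genes mostly above 0 and the longer below, and Hsd17b7 is lowest in the 3 lines other than Dkk1_KO.

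The spread between replicates of these 28 genes was small in the knockout. The median SD of log2 CPM was 0.036 in Dkk1_KO, 0.205 in IWP2, 0.178 in IWP2_removed and 0.138 in control. Over all genes it was 0.057 in Dkk1_KO, 0.285 in IWP2, 0.159 in IWP2_removed and 0.167 in control. Hsd17b7 lies on distal chromosome 1, where the 368 tested genes between 150 and 200 Mb had a median log2 fold change of 0.50 in IWP2 and 0.43 in IWP2_removed against control, and its own estimates were 0.57 ± 0.43 and 0.21 ± 0.43 in those comparisons.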

How the data were processed

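RNA sequencing libraries (TruSeq stranded mRNA, per the labels' protocols) were quantified by the authors. The deposited tables give an estimated count and a TPM value per transcript, and the authors made both with Salmon, per the submitters' processing notes, which also name DESeq2 and edgeR. Versions, the transcriptome build and read filters are not given in the sources used here. Such counts can be fractional, since reads shared by transcripts or close gene copies are divided among them.

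Transcripts were assigned to genes with GENCODE vM21 (GRCm38): 133399 of 133618 matched by stable identifier, and the 219 others held 0.117% to 0.161% of the reads. Estimated counts were summed per gene and rounded, and TPM were summed. The test was that of edgeR 4.0.16 under R 4.3.3 (TMM, filterByExpr, a mean per group over all 9 libraries, quasi-likelihood test, Benjamini-Hochberg adjustment over the 18096 genes tested, call below 0.05; biological coefficient of variation 0.229). CPM are on the TMM scale. An interval within 2-fold is a 95% interval. Letter C against B was fitted with a mean per line over 6 libraries. The scripts were tested on simulated data.

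The members and gene lists were chosen with earlier results of these data known. All members are named, with TPM per library for those called (the 4 with the smallest adjusted p per step in Dkk1_KO) and for the 3 with the highest mean TPM, and up to 3 called genes per related list, some of which are not reported here. Alternatives were DESeq2 size factors, the DESeq2 1.42.0 Wald test, limma-trend (limma 3.58.1) on log2(TPM + 1), no filter or a 1 CPM filter, only the groups compared, the replicate number or the letter as a block, Dkk1_KO averaged to 1 or left out, and each library left out. A transcript length offset and blocked fits of 6 libraries were added after seeing the data.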

Additional observations from a re-analysis of the deposited data

How the results depend on the processing

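The number of the 28 genes called in Dkk1_KO against control, 16, was 3 with the Dkk1_KO libraries averaged to 1 and 10 to 20 with each library left out in turn. Of the calls, those of Acat2, Idi1, Tm7sf2 and Scd2 ended only under that average. With the replicate number or the letter as a block, 13 were called, by limma-trend on log2(TPM + 1) 13, with the length offset 17, and with only the compared groups 23. Insig1 changed sign under limma-trend, at -0.065. In IWP2 against control, where 0 were called, members were called only without IWP2 replicate 1, which left IWP2 without replication. In IWP2_removed against control the DESeq2 Wald test, no filter and the length offset called 1 each, against 0, and leaving out single libraries 0 to 2. In IWP2_removed against IWP2 the DESeq2 Wald test and no filter called 2, the length offset 1, and leaving out single libraries 0 to 1. Same-numbered libraries of IWP2, IWP2_removed and control deviated together (correlations 0.43, 0.649 and 0.661 over 12107 genes), those of Dkk1_KO with the rest did not (-0.104 to -0.0435), and by the labels they share only a number. With the 6 libraries without Dkk1_KO and a replicate block, 0 were called in all 3 comparisons without Dkk1_KO. In letter C against B, with 2 called, DESeq2 size factors gave 1, no filter 4, limma-trend 0, the Dkk1_KO libraries added 0, and leaving out IWP2_removed 1. In each case the cause was not tested. Values not called that changed sign numbered 2 in Dkk1_KO, 34 in IWP2, 36 in IWP2_removed against control, 39 in IWP2_removed against IWP2 and 37 in the letter comparison. Over all genes the calls moved too. With only the compared groups they numbered 10146 in Dkk1_KO against 8018, 1 in IWP2 against 396, and 0 in IWP2_removed against IWP2 (11). Without the Dkk1_KO libraries 1 gene was called in IWP2_removed against control, against 227. For the letter the calls ran from 0, with the Dkk1_KO libraries added, to 2979, with no filter, against 1319. With 2 libraries in most groups, a gene not called is not shown to be equal. Every member had at least 125 reads in each library.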

Other observations

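Fasn reads were divided differently among transcripts in IWP2 replicate 2. A retained-intron transcript of 976 bases held 14.2% of the Fasn reads there, against 3.16% in IWP2 replicate 1, and the main coding transcript of 8333 bases held 54.3% and 80.0% in these libraries. In Dkk1_KO the main transcript held 76.6%, 75.9% and 76.7%, and in control 79.8% and 80.2%.

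The ratio of TPM to CPM of a gene, relative to its median library, was 0.939 to 0.945 in Dkk1_KO and 1.20 in control replicate 1, 1.02 in control replicate 2, as medians over 12107 genes. The sum of the 28 genes placed some libraries in another order in TPM than in CPM: Dkk1_KO replicate 3 read 1273 TPM and 4242 CPM, and control replicate 1 read 1293 TPM and 4201 CPM.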
